A study of Mus musculus with 2 samples.

Results

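The 10 genes described here were 4 Notch receptors (Notch1, Notch2, Notch3 and Notch4), 3 ligands (Dll4, Jag1 and Jag2) and 3 target transcription factors (Hes1, Hey1 and Heyl), listed by symbol among the 32285 genes of the count files. Their unique molecular identifier (UMI) counts, in which each UMI stands for 1 captured transcript, were read in cell types rebuilt from marker genes, with muscle stem cells (MuSCs) and vessel cells set side by side. Notch receptors are cell surface proteins that are cleaved when a ligand on a neighboring cell binds them. The freed intracellular part joins the DNA-binding protein RBPJ and switches on HES and HEY genes, which encode repressors. In muscle, Notch signaling is known for holding satellite cells in quiescence, and in vessels for arterial identity, tip cell selection and the maintenance of pericytes and smooth muscle.

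The samples were 2 single-cell RNA-Seq libraries of digested hindlimb muscle from female C57Bl/6J mice aged 24 months. The ATRA+agonist library came from muscles injected 3 times with all-trans retinoic acid (ATRA), which is a ligand of retinoic acid receptors, with CD3254, an agonist of retinoid X receptors, and with BMS961, an agonist of the receptor RARγ. The DMSO vehicle library came from muscles injected with the solvent alone. Each library pooled 2 mice, so each group had 1 library, no difference between the libraries was tested, and animal-to-animal spread is not known. All intervals are 95% intervals. They cover counting error only, or for shares of cells the sampling of cells within 1 library.

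The deposited matrices held 65197625 UMIs in 10444 barcodes for ATRA+agonist and 109343486 UMIs in 17394 barcodes for DMSO vehicle, and the filters kept 6907 and 6953 cells with medians of 4674 and 4856 UMIs. The libraries shared 43 barcode sequences, 9 of them among kept cells. Clusters were called MuSC-like, endothelial-like and so on from marker genes that held none of the 10 Notch genes. MuSC-like cells numbered 413 and 530, endothelial-like cells 1845 and 1897, and smooth muscle or pericyte-like (mural) cells 235 and 326, ATRA+agonist first. In MuSC-like cells all 10 MuSC markers were detected in both libraries, and in endothelial-like cells all 9 endothelial markers. The endothelial-like class was not made of the same clusters in the 2 libraries. A capillary cluster held 1624 ATRA+agonist and 710 vehicle cells, whereas a cluster led by interferon-response genes held 78 and 967. Values for endothelial cells are therefore given for the class and for its subclusters.

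Each gene is named with its Ensembl identifier and its GRCm38 position from the GENCODE M21 annotation. Among the receptors, Notch1 (ENSMUSG00000026923) lies on chromosome 2 from 26457903 to 26516663 on the minus strand, and Notch2 (ENSMUSG00000027878) on chromosome 3 from 98013527 to 98150361 on the plus strand. Notch3 (ENSMUSG00000038146) and Notch4 (ENSMUSG00000015468) are both on chromosome 17, from 32120820 to 32166852 on the minus strand and from 34564268 to 34588503 on the plus strand. Among the ligands, Dll4 (ENSMUSG00000027314) spans 119325784 to 119335962 on the plus strand of chromosome 2 and Jag1 (ENSMUSG00000027276) 137081456 to 137116644 on its minus strand. Jag2 (ENSMUSG00000002799) spans 112907819 to 112929776 on the minus strand of chromosome 12. The targets are Hes1 (ENSMUSG00000022528; chromosome 16, 30064384 to 30067796, plus strand), Hey1 (ENSMUSG00000040289; chromosome 3, 8663359 to 8667256, minus strand) and Heyl (ENSMUSG00000032744; chromosome 4, 123233556 to 123249875, plus strand).

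Promoter sequences of 300 bases, from 250 before to 50 after the annotated start, were found for 7 of the 10 genes in the RefSeq table of GRCm38.p6, and the entries for Hes1, Hey1 and Heyl were missing. The promoters of Notch3 and Notch4 are shown because these receptors took opposite places in vessels, Notch3 in mural cells and Notch4 in endothelial cells. Capitals mark GC boxes (GGGCGG) in Notch3, and ETS core sites (CGGAAG, or with a changed first base AGGAAG), AP-1 sites (TGACTCA, or with the center changed TGAGTCA) and retinoic acid receptor half-sites (AGGTCA, with the common variants GGGTCA and, more loosely, AGTTCA and likewise GGTTCA) in Notch4, each on either strand.
Notch3 (chr17:32166841-32167140, minus strand): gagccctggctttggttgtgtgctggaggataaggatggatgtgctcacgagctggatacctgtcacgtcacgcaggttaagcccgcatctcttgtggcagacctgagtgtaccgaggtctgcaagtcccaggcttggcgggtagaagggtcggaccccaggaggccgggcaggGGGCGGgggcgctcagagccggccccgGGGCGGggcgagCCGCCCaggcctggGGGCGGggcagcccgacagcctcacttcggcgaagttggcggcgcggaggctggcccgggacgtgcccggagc
Notch4 (chr17:34564045-34564344, plus strand): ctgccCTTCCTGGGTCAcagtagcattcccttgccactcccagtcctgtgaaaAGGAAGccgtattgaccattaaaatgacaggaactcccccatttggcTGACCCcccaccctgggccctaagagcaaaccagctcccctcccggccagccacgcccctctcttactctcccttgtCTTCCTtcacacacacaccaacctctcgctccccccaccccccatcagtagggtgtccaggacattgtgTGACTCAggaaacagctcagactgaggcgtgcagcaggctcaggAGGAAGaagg
The Notch3 promoter held 4 GC boxes and none of the other motifs. The Notch4 promoter held 4 ETS cores, 2 retinoic acid receptor half-sites, 1 AP-1 site and no GC box, and the first ETS core and the first half-site stood next to each other. GC boxes were also found in the promoters of Notch1, Notch2, Dll4 and Jag2, but not in that of Jag1, and the RBPJ core TGGGAA was in none of the 7. Starts differ between the 2 annotations. The Notch1 window, from 26503773 to 26504072 on chromosome 2, lay inside the gene as placed above, away from its GENCODE start at 26516663. Among 32851 promoters of the same length, 35.7% held a GC box, 46.5% an ETS core, 43.7% a half-site, 5.202% an AP-1 site and 25.6% the RBPJ core. These matches are letters in a window and show no binding.

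The 4 receptors differed in the classes that held them. Levels are given as CPM, the UMIs of a gene per 1000000 UMIs of a class. Transcripts were read from one end, and 1 gene is compared across classes, not 1 gene with another. Notch3, the receptor known for its role in mural cells and in satellite cell quiescence, stood at 337 CPM (interval 317 to 357) in MuSC-like cells of the ATRA+agonist library and at 304 CPM (287 to 322) with vehicle. In mural cells Notch3 reached 838 CPM (781 to 898) with ATRA+agonist and 770 CPM (723 to 818) with vehicle. The mural level was thus 2.49-fold the MuSC-like level in one library and 2.53-fold in the other. Endothelial-like cells held Notch3 at 4.20 and 2.76 CPM, near the bottom of the scale. MuSC-like and mural cells together carried most Notch3 UMIs, with 52.1% and 37.5% of the Notch3 UMIs in the ATRA+agonist library and 49.98% and 42.3% in the vehicle library.

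Notch1, the receptor most studied in satellite cells and in endothelium, was present in all 3 classes. It stood at 91.6 CPM (81.6 to 102) and 87.6 CPM (78.6 to 97.3) in MuSC-like cells, ATRA+agonist first. In endothelial-like cells it stood at 203 CPM (192 to 214) and 219 CPM (209 to 230). Endothelial-like cells thus held 2.22-fold the level of MuSC-like cells with ATRA+agonist and 2.502-fold with vehicle, and they ranked highest of the 9 classes with at least 100 cells in each library. The next class, lymphatic endothelial-like cells, with 30 and 91 Notch1 UMIs, had overlapping intervals with them in both libraries.

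Notch2 showed the reverse of Notch1 in endothelium. MuSC-like cells held Notch2 at 148 CPM (135 to 161) and 147 CPM (135 to 159), and endothelial-like cells at 10.1 CPM (7.91 to 12.8) and 11.03 CPM (8.80 to 13.7). Of the same 9 classes Notch2 ranked highest in tenocyte-like cells, at 220 and 238 CPM, followed by monocyte or macrophage-like cells, at 183 and 203 CPM. MuSC-like cells came next, and their intervals overlapped those of FAP-like cells (fibro-adipogenic progenitors), at 134 and 132 CPM. Mural cells held 62.5 and 67.8 CPM. Classes with under 100 cells in a library, outside this ranking, also held Notch2. B cell-like cells held 128 and 172 CPM, neutrophil-like cells 237 and 348 CPM and dendritic-like cells 240 and 222 CPM. FAP-like cells carried 37.0% and 34.7% of all Notch2 UMIs, and MuSC-like cells 10.1% and 11.3%.

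Notch4, a receptor known from endothelium, had few UMIs in most classes outside vessels. Endothelial-like cells held 59.5 CPM (53.9 to 65.6) with ATRA+agonist and 52.9 CPM (47.9 to 58.4) with vehicle, and 83.4% and 85.9% of all Notch4 UMIs in kept cells. Lymphatic endothelial-like cells ranked next with 8 and 15 UMIs, or 42.7 and 29.0 CPM, and their interval overlapped that of endothelial-like cells with ATRA+agonist only. MuSC-like cells held 4 and 3 UMIs in all. Mural cells held 8 and 9 UMIs, or 8.33 and 6.78 CPM. Dendritic-like cells, with under 100 cells in the vehicle library, held 3.04% and 0.426% of the Notch4 UMIs in kept cells.

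**Figure D1:**
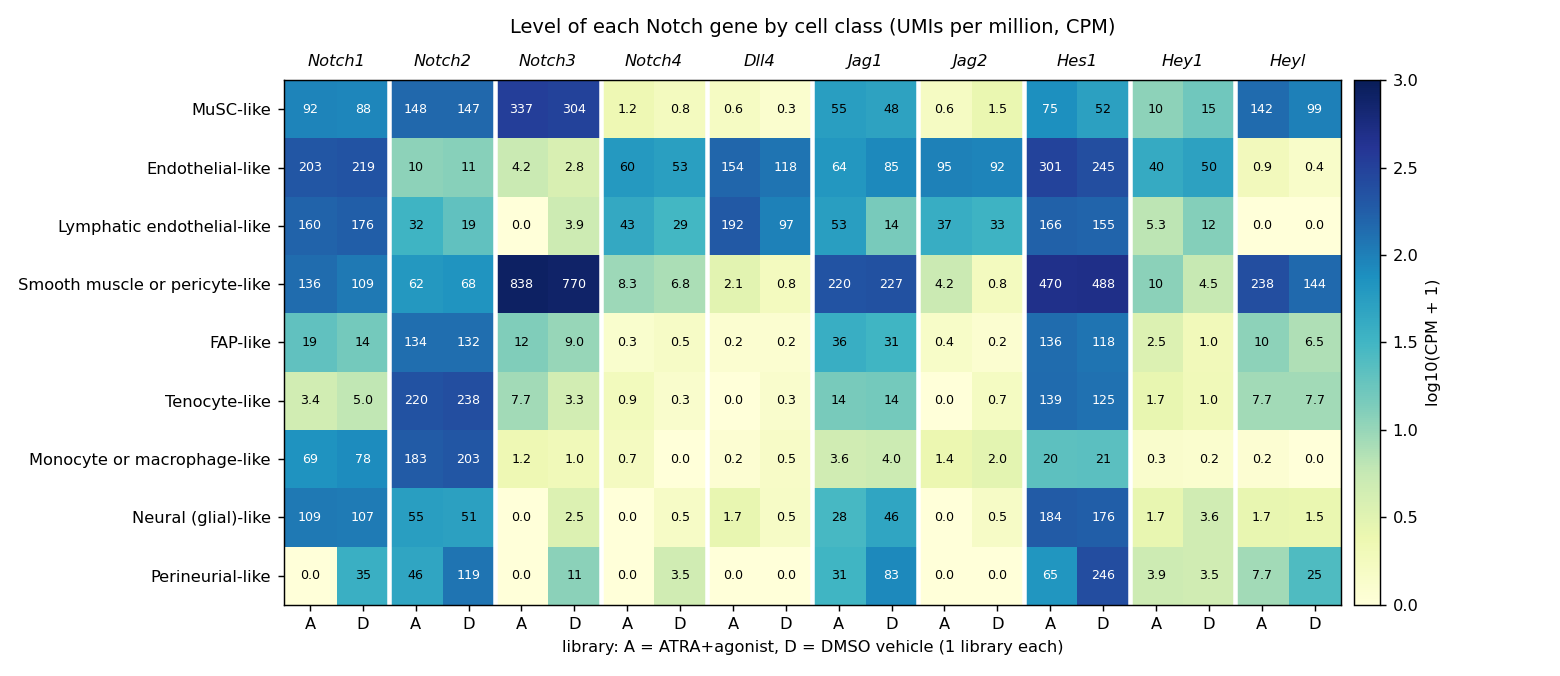
Level of each of the 10 genes (columns, with the ATRA+agonist library as A and the DMSO vehicle library as D) in the 9 cell classes with at least 100 cells in each library (rows). Each cell prints the CPM and is colored by log10(CPM + 1). Notch3 and Heyl are high in the MuSC-like and mural rows, and Notch4, Dll4 and Jag2 in the endothelial rows.

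Of the ligands, Dll4 and Jag2 had most of their UMIs in endothelial-like cells, and Jag1 did not. Dll4, the Delta-like ligand of endothelial tip and arterial cells, stood at 154 CPM (145 to 164) and 118 CPM (110 to 126) in endothelial-like cells, which held 90.9% and 92.0% of its UMIs. Lymphatic endothelial-like cells held it too, at 192 CPM (135 to 266) and 96.6 CPM (71.7 to 127), with intervals that overlapped those of endothelial-like cells. These values rest on 36 and 50 UMIs in 135 and 239 cells, with medians of 1194 and 1895 UMIs. In this cluster 6 of 7 lymphatic markers were 2-fold higher than elsewhere, but only 1, Ccl21a, was among its 10 leading genes. Whether other endothelial cells of low depth were among these cells was not tested. MuSC-like cells held 2 and 1 Dll4 UMIs, and mural cells also 2 and 1. Jag2, a Serrate-type ligand, was likewise endothelial, at 95.05 CPM (87.9 to 103) and 92.0 CPM (85.3 to 99.0), with 2 and 6 UMIs in MuSC-like cells. These counts were too few to read as expression in MuSC-like cells.

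Jag1, the Serrate-type ligand known for patterning mural cells, was the only 1 of the 3 ligands with over 50 UMIs in MuSC-like cells. It stood there at 54.5 CPM (46.9 to 63.1) and 47.7 CPM (41.1 to 55.0). Mural cells held 220 CPM (191 to 251) and 227 CPM (202 to 254), the highest of the 9 classes, and 4.03-fold and 4.76-fold the MuSC-like level. Endothelial-like cells held 64.5 CPM (58.6 to 70.8) and 84.6 CPM (78.2 to 91.4). In the ATRA+agonist library the endothelial-like and MuSC-like intervals overlapped, and in the vehicle library they did not. FAP-like cells held 36.5 and 30.7 CPM. Of all Jag1 UMIs, FAP-like cells carried 33.8% and 23.2%, endothelial-like cells 30.9% and 36.1%, mural cells 14.6% and 16.9% and MuSC-like cells 12.6% and 10.6%.

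The 3 target genes had different levels over the classes. Heyl was found where Notch3 was, at 142 CPM (129 to 155) and 99.0 CPM (89.4 to 109) in MuSC-like cells and 238 CPM (209 to 271) and 144 CPM (124 to 166) in mural cells. Endothelial-like cells held 6 and 3 Heyl UMIs, or 0.869 and 0.394 CPM. Hey1 showed the other pattern, at 40.3 CPM (35.7 to 45.3) and 49.5 CPM (44.7 to 54.8) in endothelial-like cells, 10.2 CPM (7.09 to 14.3) and 15.4 CPM (11.8 to 19.8) in MuSC-like cells, and 10 and 6 UMIs in mural cells. Hes1, which other pathways also induce, was found in all 9 classes. It was highest in mural cells, at 470 CPM (427 to 515) and 488 CPM (452 to 528), and lower in endothelial-like cells, at 301 CPM (288 to 314) and 245 CPM (234 to 256). MuSC-like cells held less Hes1, at 75.3 CPM (66.3 to 85.2) and 51.7 CPM (44.9 to 59.3), which put them below FAP-like cells at 136 and 118 CPM.

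For Notch3 and Dll4 the share of cells with a UMI differed between classes as the CPM did. Before thinning, 78.9% of MuSC-like cells held a Notch3 UMI with ATRA+agonist and 73.6% with vehicle, against 0.156% and 0% of B cell-like cells. These classes differed in depth, with medians of 7432 and 6469 UMIs in MuSC-like cells and 5370 and 4444 in B cell-like cells. When each cell was drawn down to 2000 UMIs, 48.2% of 400 and 42.9% of 511 MuSC-like cells held Notch3, and 0 of 629 and 0 of 67 B cell-like cells did. Shallower cells were left out of the thinned shares. Dll4 was in 37.8% and 31.0% of endothelial-like cells, at medians of 3429 and 3603 UMIs. At 2000 UMIs 25.6% (23.5 to 27.7) and 19.8% (17.9 to 21.7) of them held it, and 0 of 400 and 0 of 511 MuSC-like cells. For Jag1 the shares were 28.6% and 24.2% of MuSC-like cells and 13.8% and 16.2% of endothelial-like cells, against the order of the CPM, so no order was read from them.

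For each gene the 3 genes with the closest pattern over the 9 classes were found by Pearson's r of log2(CPM + 10), among 15288 genes with at least 100 UMIs. The classes share library and depth, genes that mark a class follow its boundaries, and r is given as a description over 9 points. Heyl was the second closest gene to Notch3 (r = 0.975), and Notch3 the second closest to Heyl. Closest to Notch4 were Arhgef15, the VEGF receptor gene Kdr, which is itself one of the endothelial markers, and Spns2, all at r of 0.996 or 0.997. Closest to Dll4 were 4833403J16Rik, Nr5a2 and Ccm2l. Closest to Jag2 were the guidance receptor gene Robo4, Mall and the arterial transcription factor gene Sox17, at r of 0.998 or 0.999. Closest to Hey1 were the retinol-binding protein gene Rbp7, with r of 0.976, the ligand gene Dll1, with r of 0.946, and Degs2. For the widely expressed genes the closest were Acin1, Ppp6c and Cab39 for Notch1, Runx1, Adcy7 and Hk2 for Notch2, Hist1h1e, Rps6kb2 and Bpnt1 for Jag1, and Zfp426, Lzts2 and Cers4 for Hes1.

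The ligands and Hey1 differed between vessel subclusters. Sub-clustering divided the endothelial-like cells into capillary-like (1674 and 715 cells), capillary-like led by interferon-response genes (32 and 975), arterial-like (100 and 125) and venous-like cells (39 and 82). Jag1 stood at 410 CPM (358 to 467) and 509 CPM (458 to 564) in arterial-like cells against 34.6 CPM (30.04 to 39.6) and 43.3 CPM (35.7 to 52.0) in capillary-like cells. The arterial-like level was 11.9-fold the capillary-like level in the ATRA+agonist library and 11.7-fold in the vehicle library, and intervals did not overlap in either. Jag2 was 2.29-fold and 1.61-fold higher in arterial-like than in capillary-like cells, and Notch1 1.49-fold and 1.40-fold, with every interval of these log2 ratios above 0.

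Hey1 stood at 155 CPM (124 to 191) and 113 CPM (89.4 to 140) in arterial-like cells and at 31.4 CPM (27.1 to 36.2) and 60.4 CPM (51.4 to 70.5) in capillary-like cells. No Hey1 UMI was found in venous-like cells, where the floor of 3 counts lay at 16.3 CPM with ATRA+agonist and 5.82 CPM with vehicle. Dll4 separated veins rather than arteries. Capillary-like cells held 156 and 125 CPM and arterial-like cells 171 and 132 CPM, a difference within counting error, and venous-like cells held 2 and 6 UMIs, or 10.9 and 11.6 CPM. Notch4 was also low in venous-like cells, with 3 and 5 UMIs. Hes1 ran against the arterial order, with 313 and 373 CPM in capillary-like cells and 225 and 142 CPM in arterial-like cells.

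Mural cells divided into pericyte-like cells (185 and 240), vascular smooth muscle-like cells (38 and 50) and an unnamed rest. Notch3 did not differ beyond counting error between the first 2, at 830 and 774 CPM in pericyte-like cells and 879 and 726 CPM in vascular smooth muscle-like cells. The log2 ratio between them was -0.08 (-0.44 to 0.29) with ATRA+agonist and 0.09 (-0.16 to 0.36) with vehicle. Heyl did differ. Pericyte-like cells held 258 CPM (224 to 295) and 170 CPM (144 to 199), and vascular smooth muscle-like cells 4 and 12 UMIs, or 49.5 and 57.3 CPM, which made the pericyte-like level 5.21-fold and 2.97-fold higher. The 38 smooth muscle-like cells with ATRA+agonist had a median of 1302 UMIs, against 3901 with vehicle, so their values rest on few UMIs.

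**Figure D2:**
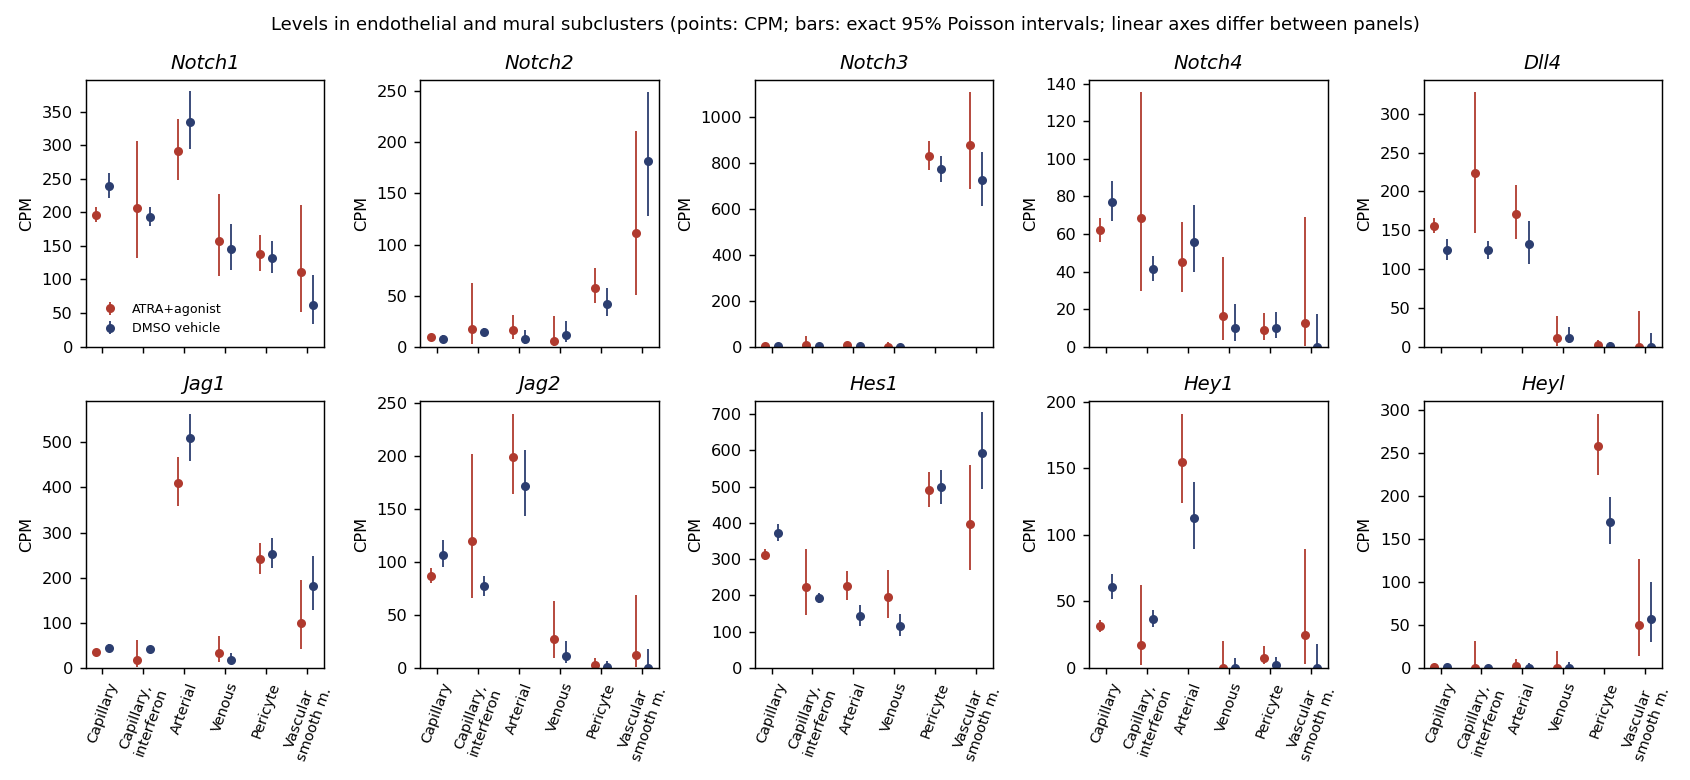
CPM of each gene (1 panel each, linear axes from 0 that differ in range) in 6 endothelial and mural subclusters, with exact 95% Poisson intervals as bars and the ATRA+agonist and DMSO vehicle libraries in 2 colors. Jag1 and Hey1 peak in arterial-like cells, Dll4 is near 0 in venous-like cells, and Heyl is highest in pericyte-like cells, at 258 and 170 CPM.

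The libraries were then compared class by class, as the study asked what retinoid injection does in aged muscle. A gene was counted as past the fold where its CPM differed at least 1.5 times and both libraries together held at least 50 UMIs. In MuSC-like cells 7 of the 10 genes reached 50 UMIs, 0 were past the fold higher with ATRA+agonist and 1, Hey1, was past it lower. Of all 9299 genes with 50 UMIs in these cells, 6.43% were past the fold higher and 4.62% lower. The 7 measured Notch genes are too few to be told apart from these shares or likened to them. Their median log2 ratio was 0.15, and that of all genes was 0.04.

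The intervals of 3 genes, Heyl, Hes1 and Notch3, lay above 0 in MuSC-like cells and those of 0 genes below it, against 14.1% of all 9299 genes above and 12.4% below. Heyl was counted 470 times in 413 ATRA+agonist cells and 392 times in 530 vehicle cells, which gave 142 against 99.0 CPM and a log2 ratio of 0.52 (0.32 to 0.71), or 1.43-fold. Hes1 was counted 250 and 205 times, with a log2 ratio of 0.54 (0.27 to 0.81), or 1.46-fold. Notch3 differed less, with a log2 ratio of 0.15 (0.03 to 0.26). Both target genes were thus higher by less than 1.5-fold, and the receptors Notch1 and Notch2 had log2 ratios of 0.06 (-0.16 to 0.29) and 0.01 (-0.17 to 0.19). The Jag1 log2 ratio was 0.19 (-0.11 to 0.49). Hey1, with 34 and 61 UMIs, had a log2 ratio of -0.59 whose interval (-1.24 to 0.04) included 0.

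The spread of Heyl UMIs and of Hes1 UMIs over MuSC-like cells was read for each gene alone. Heyl was found in 209 ATRA+agonist and 213 vehicle cells, and the 10 cells with the most held 16.2% and 16.3% of the UMIs. Hes1 was found in 100 and 111 cells, and the 10 highest held 31.6% of the ATRA+agonist UMIs and 23.9% of the vehicle UMIs. Hes1 was in 24.2% of ATRA+agonist and 20.9% of vehicle MuSC-like cells, and at 2000 UMIs per cell in 10.8% (7.89 to 14.2) and 8.81% (6.50 to 11.6), with overlapping intervals. B cell-like cells, 639 and 69 before thinning, held Hes1 in 13.9% and 15.9% of cells and, thinned, in 5.72% and 11.9%. The thinned share was thus lower than that of MuSC-like cells with ATRA+agonist and higher with vehicle, and a Hes1 UMI was not particular to MuSC-like cells. Heyl was in 50.6% and 40.2% of MuSC-like cells. For Heyl the thinned shares were 21.2% (17.3 to 25.6) and 15.7% (12.6 to 19.1), and these intervals overlapped too. No B cell-like cell held Heyl.

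Genes of the dissociation response also differed between the libraries in MuSC-like cells. Of 21 immediate early and heat shock genes, 5 were past the fold higher with ATRA+agonist and 2 lower, beside the 6.43% and 4.62% of all genes given above, and the median log2 ratio was 0.34. Fos stood at 4115 and 2106 CPM, and the heat shock gene Hspa1b at 36.4 and 95.4 CPM in the other direction. In the MuSC-like cells at or below the median share of dissociation-gene UMIs, the Hes1 log2 ratio was 0.85 (0.41 to 1.29), and in the cells above it 0.07 (-0.28 to 0.43). The Heyl log2 ratio was 0.44 (0.18 to 0.70) and 0.74 (0.42 to 1.07) in the same groups. The summed level of the 10 mural markers in MuSC-like cells was 592 CPM with ATRA+agonist and 373 with vehicle, with 1 marker at 0 in each library, and that of the 9 endothelial markers was 46.1 and 58.1 CPM, with none at 0. In mural cells themselves the mural markers summed to 17100 and 18773 CPM, and their part in the MuSC-like values of Heyl and Notch3, which both classes express, was not tested.

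In mural cells 6 of the 10 genes reached 50 UMIs, and Heyl was the 1 gene past the fold higher, with 0 lower, against 6.20% of 6650 genes higher and 7.47% lower. Heyl was counted 229 times in 235 ATRA+agonist cells and 191 times in 326 vehicle cells, which gave 238 against 144 CPM and a log2 ratio of 0.73 (0.44 to 1.01), or 1.66-fold. Of all mural cells, 48.5% and 38.3% held a Heyl UMI. At 2000 UMIs per cell, 39.4% (32.3 to 46.7) of 188 ATRA+agonist and 20.1% (15.6 to 25.3) of 278 vehicle mural cells held a Heyl UMI. These intervals, over the cells of 1 library each, did not overlap. Those at 1000 UMIs per cell did, at 18.8% (13.8 to 24.6) and 12.46% (9.01 to 16.6). Pericyte-like cells alone gave 1.52-fold, with a log2 ratio of 0.60 (0.30 to 0.91). The 2 pericyte-like subclusters were filled unequally by the libraries, with 134 and 88 cells in one and 51 and 152 in the other. Heyl was higher with ATRA+agonist in both, at 274 against 179 CPM, a log2 ratio of 0.61 (0.16 to 1.08), and at 226 against 165 CPM, a log2 ratio of 0.45 (-0.03 to 0.92).

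The other mural genes differed less between the libraries. Log2 ratios were 0.12 (-0.01 to 0.26) for Notch3, 0.32 (-0.03 to 0.67) for Notch1, -0.12 (-0.62 to 0.37) for Notch2, -0.05 (-0.31 to 0.21) for Jag1 and -0.06 (-0.23 to 0.12) for Hes1. Every one of these intervals included 0, so the interval of 1 gene, Heyl, lay above 0 and of 0 genes below it, against 10.2% of all 6650 genes above and 11.0% below. The dissociation genes had a median log2 ratio of -0.52 in mural cells, the opposite sign to that in MuSC-like cells. Heyl was also higher in FAP-like cells, at 10.3 against 6.51 CPM, a log2 ratio of 0.67 (0.27 to 1.07), where its level was low in both libraries.

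In endothelial-like cells 9 of the 10 genes reached 50 UMIs. The 1 gene past the fold higher was Notch3, with 29 and 21 UMIs and an interval (-0.25 to 1.49) that included 0, and 0 were lower, against 6.26% of 11116 genes higher and 4.16% lower. The Notch3 log2 ratio of 0.61 turned to -0.59 when cells were thinned to 2000 UMIs. Dll4 was counted 1065 and 896 times, and its log2 ratio was 0.39 (0.26 to 0.52), or 1.31-fold. Hes1 was counted 2077 and 1862 times, and its log2 ratio was 0.30 (0.21 to 0.39). Jag1 stood lower in the treated library, at -0.39 (-0.57 to -0.22) on the same scale, as did Hey1, at -0.30 (-0.53 to -0.07), and Notch1, at -0.11 (-0.22 to -0.01). Notch4, at 0.17 (-0.03 to 0.37), and Jag2, at 0.05 (-0.11 to 0.20), had intervals that included 0. The intervals of 2 genes thus lay above 0 and of 3 below it, against 21.6% of all 11116 genes above and 12.3% below.

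The mixture of subclusters in each library entered these class values. Within the vehicle library, cells of the subcluster led by interferon-response genes held less Hes1 than other capillary-like cells, 192 against 373 CPM (log2 ratio -0.96, -1.10 to -0.82), less Notch4, 41.4 against 77.1 CPM (-0.90, -1.21 to -0.59), less Hey1, 36.6 against 60.4 CPM (-0.72, -1.06 to -0.38) and less Jag2, 76.9 against 107 CPM (-0.48, -0.72 to -0.24). They also held less Notch1, 193 against 239 CPM (-0.31, -0.46 to -0.15), and more Notch2, 14.2 against 7.60 CPM (0.90, 0.13 to 1.72), the latter from 53 and 20 UMIs. Their Dll4 level was 125 CPM, as in the other capillary-like cells, with a log2 ratio of -0.01 (-0.21 to 0.20). Without this subcluster the Hes1 log2 ratio of endothelial-like cells was 0.03 (-0.07 to 0.14), and that of Dll4 was 0.46 (0.30 to 0.63). The Jag1 log2 ratio was then -0.95 (-1.14 to -0.76). Arterial-like cells, which are rich in Jag1, were 100 of the remaining 1813 ATRA+agonist cells and 125 of the remaining 922 vehicle cells, and the part of this difference in the Jag1 value was not tested. Within capillary-like and arterial-like cells the Jag1 log2 ratios were -0.32 (-0.66 to 0.02) and -0.31 (-0.56 to -0.07).

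In capillary-like cells 8 of the 10 genes reached 50 UMIs, 0 were past the fold higher and 1, Hey1, was past it lower, against 6.79% of 9973 genes higher and 2.90% lower. Hey1 stood at 31.4 CPM with ATRA+agonist and 60.4 CPM with vehicle, a log2 ratio of -0.94 (-1.25 to -0.63). The 3 largest capillary-like subclusters gave -1.19 (-1.76 to -0.62), -0.58 (-1.17 to 0.04) and -0.79 (-1.35 to -0.23), so Hey1 was the lower in the ATRA+agonist library in each. Dll4 was the 1 gene with an interval above 0, at 0.32 (0.14 to 0.50), and its log2 ratio in these subclusters was 0.43 (0.09 to 0.77), 0.35 (0.03 to 0.68) and 0.19 (-0.16 to 0.55). Notch1 (-0.29, -0.43 to -0.14), Notch4 (-0.31, -0.56 to -0.06), Jag2 (-0.30, -0.51 to -0.09) and Hes1 (-0.25, -0.37 to -0.14) were lower by less than 1.5-fold. With Hey1, the intervals of 5 genes lay below 0, against 9.23% of all 9973 genes, and 13.6% of them had intervals above it. In the 3 largest subclusters Hes1 gave 0.07 (-0.16 to 0.31), -0.47 (-0.65 to -0.29) and -0.10 (-0.31 to 0.10), so it was not lower in each. The median log2 ratio of the 8 genes was -0.29, and that of all genes was 0.05. The split between capillary-like cells and those led by interferon-response genes was made from genes that differ between the libraries, and the part of this selection in the capillary-like values was not tested.

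In arterial-like cells 7 genes reached 50 UMIs, 1 was past the fold higher and 0 lower, against 7.02% of 4217 genes higher and 8.44% lower. The 1 gene was Hes1, with 125 and 102 UMIs in 100 and 125 cells, or 225 (187 to 268) against 142 CPM (116 to 172), a log2 ratio of 0.66 (0.28 to 1.06). Hey1 had a log2 ratio of 0.46 with a lower bound that rounds to 0.00 and an upper bound of 0.91. Jag1 was lower, at -0.31 (-0.56 to -0.07). The intervals of 2 genes lay above 0 and of 1 below it, against 9.56% of all 4217 genes above and 10.5% below. Hey1 and Hes1 thus had opposite signs in arterial-like and capillary-like cells, a difference that was not tested. The arterial-like level of Hey1 was 1.86-fold the capillary-like level in the vehicle library and 4.92-fold in the ATRA+agonist library.

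**Figure D3:**
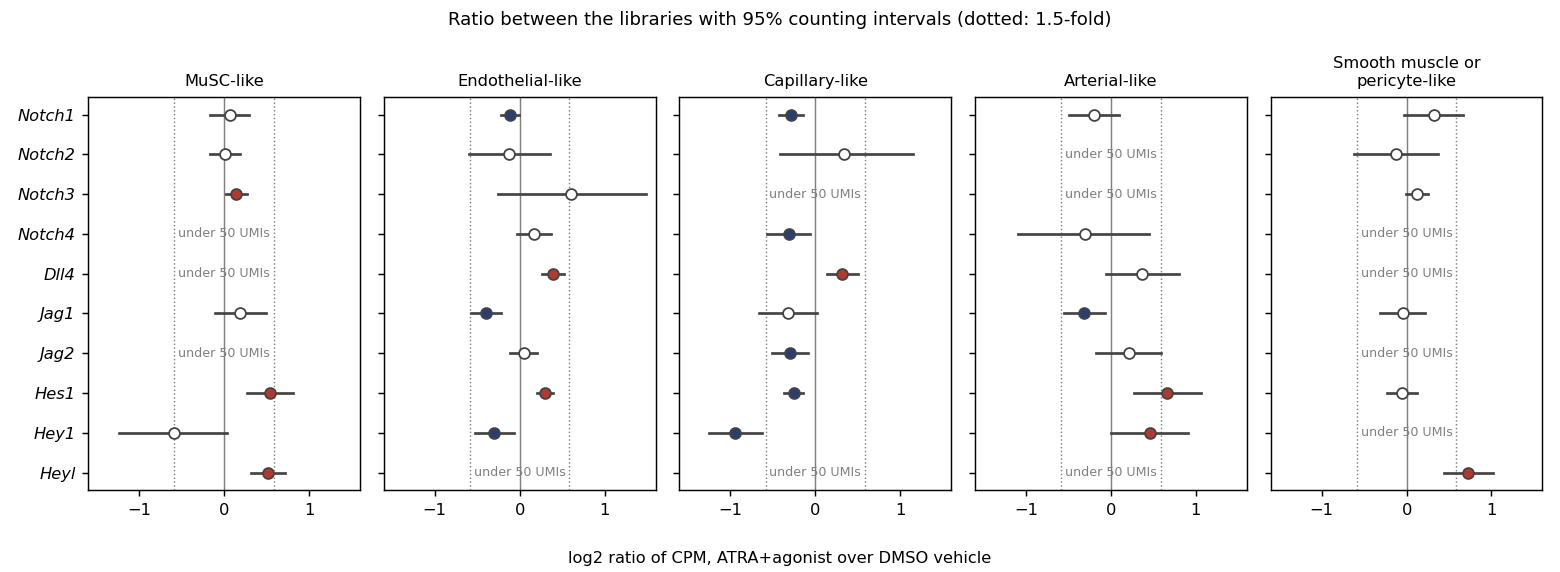
Log2 ratio of CPM (ATRA+agonist over DMSO vehicle, 1 library each) for each gene in 5 groups of cells, with 95% counting intervals as bars. Filled points have intervals that leave out 0, and dotted lines mark 1.5-fold. Heyl is higher in both MuSC-like cells (0.52) and mural cells (0.73), and Hey1 is lower in capillary-like cells (-0.94).

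The other genes of the pathway were listed by role, 58 in all. In MuSC-like cells 39 of them reached 50 UMIs, with 3 past the fold higher and 2 lower, beside 6.43% and 4.62% of all genes. The higher genes were the ligand gene Dll1 (14.5 against 9.34 CPM, log2 ratio 0.63, -0.02 to 1.29), the Deltex gene Dtx3 (27.7 against 18.4 CPM, 0.59, 0.13 to 1.05) and the HES family gene Hes6 (24.1 against 12.9 CPM, 0.90, 0.38 to 1.44). The lower genes were corepressor genes of the RBPJ complex, Tle1 (16.6 against 29.0 CPM, -0.81, -1.30 to -0.33) and Bend6 (4.52 against 10.3 CPM, -1.20, -2.16 to -0.31). None of the 10 measured genes of receptor cleavage and none of the 7 of the nuclear complex was past the fold, and Rbpj stood at 180 and 187 CPM.

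In endothelial-like cells 42 of the 58 reached 50 UMIs, with 2 higher and 1 lower, beside 6.26% and 4.16% of all genes. Nrarp, a target that dampens Notch signaling, stood at 95.9 against 58.3 CPM, a log2 ratio of 0.72 (0.54 to 0.89). The glycosyltransferase gene Rfng stood at 8.11 against 4.07 CPM (0.99, 0.34 to 1.68). The ubiquitin ligase gene Neurl3 was lower, at 33.6 against 68.8 CPM (-1.03, -1.26 to -0.81). In capillary-like cells 41 genes reached 50 UMIs and 3 were higher (Rfng, Aph1b and Dtx3), each with an interval that included 0, and 0 lower, beside 6.79% and 2.90% of all genes. Neither Nrarp, at 0.58 (0.33 to 0.83), nor Neurl3, at 0.43 (-0.02 to 0.90), was past the fold there. In mural cells 30 genes reached 50 UMIs, and 1, the non-canonical ligand gene Dlk1, was past the fold, lower at 18.7 against 38.4 CPM (-1.04, -1.90 to -0.24), beside 6.20% of all genes higher and 7.47% lower.

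Log2 ratios were recomputed under other filters, clusterings, scalings and cell selections. Over 18 alternatives the Heyl log2 ratio in MuSC-like cells lay between 0.44 and 0.74, and over 16 alternatives that in mural cells lay between 0.55 and 0.96. The Dll4 log2 ratio in endothelial-like cells lay between 0.31 and 0.46 over 17 alternatives. Hes1 was less steady, between 0.07 and 0.85 in MuSC-like cells and between 0.03 and 0.35 in endothelial-like cells. The endothelial-like Jag1 log2 ratio lay between -0.95 and -0.01 and that of Hey1 between -0.62 and -0.20. The log2 ratios of capillary-like and arterial-like cells, among them that of Hey1, were not recomputed in this way.

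**Figure D4:**
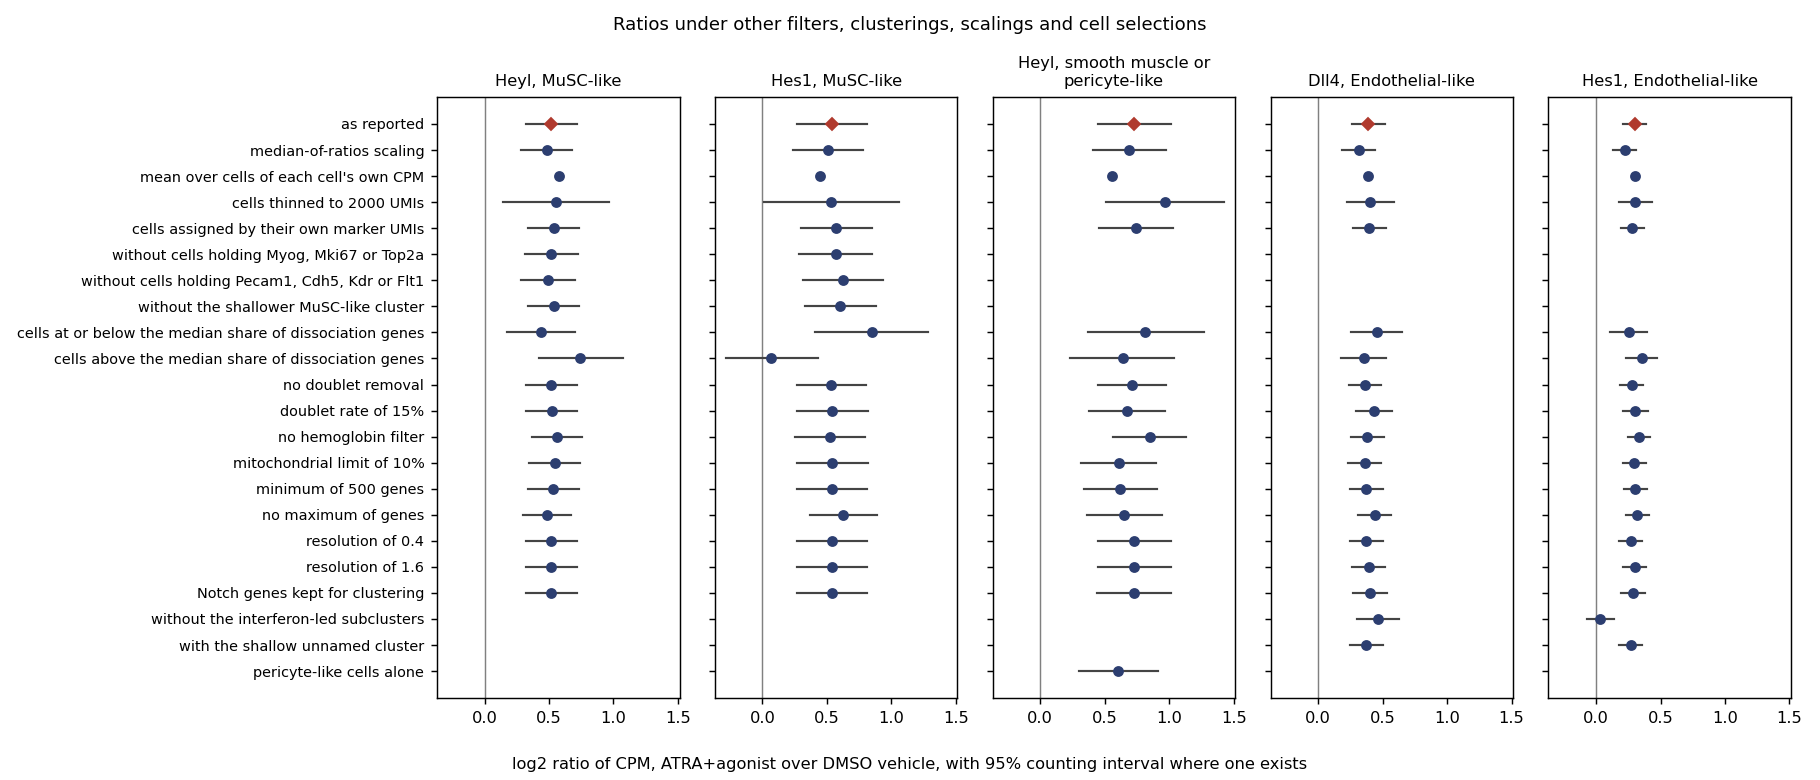
Log2 ratio of CPM (ATRA+agonist over DMSO vehicle) for 5 pairs of gene and cell class as reported (diamonds) and under each alternative (circles), with 95% counting intervals where one exists. Heyl and Dll4 stay above 0 throughout, whereas Hes1 comes to 0.07 in MuSC-like cells above the median share of dissociation genes and to 0.03 in endothelial-like cells without the interferon-led subclusters.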

How the data were processed

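Both libraries were 10x Genomics 3′ single-cell RNA-Seq libraries of live, sorted cells from digested hindlimb muscle. Per the file headers, the deposited UMI counts, whole numbers of molecules per gene and barcode, were made with Cell Ranger 7.2.0. The study's methods name filtered matrices, which hold the barcodes called as cells. The mm10 build is given in the study's methods. The labels also describe a bulk RNA-Seq protocol, which was not used here.

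Cells with 300 to 5000 genes, under 20% mitochondrial UMIs and under 0.25% hemoglobin UMIs were kept. Doublets were removed per library by a rebuilt artificial-neighbor score at a rate of 7.5%. Counts were log-normalized to 10000 per cell, and 2000 variable genes, without the 10 Notch genes and 58 other pathway genes, gave 30 principal components. Cells were joined by their 20 nearest neighbors in that space and split by the Louvain method at a resolution of 0.8 (igraph 0.11.9, scikit-learn 1.9.0, scipy 1.17.1, numpy 2.4.6, pandas 2.3.3). Endothelial and mural clusters were clustered again at 0.6. A cluster was named where at least 3 markers of a class, with 10 UMIs or more, were 2-fold higher than elsewhere, and some limits of naming were set after the clusters were seen. Cell types are therefore rebuilt and may differ from those of the study.

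UMIs were summed per class and library. CPM carry exact Poisson intervals, ratios exact conditional binomial intervals and shares Clopper-Pearson intervals, all at 95%. The first 2 kinds cover counting error only, and those of shares cover the sampling of cells within 1 library. The floor for a count of 0 was 3 counts. Coverage of the ratio intervals was tested on simulated counts drawn from the Poisson model that the intervals assume. The simulation could not show how they cover UMIs gathered in few cells, as for Hes1 in MuSC-like cells. With 1 library per group no test was made. All 10 genes are named, as is each pathway gene past 1.5-fold with 50 UMIs and the 3 genes closest in pattern to each, of which some are not reported here. The genes, marker lists and pathway lists were chosen with earlier results of these data known. Promoters came from a RefSeq table of GRCm38.p6, and gene positions from GENCODE M21.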

Additional observations from a re-analysis of the deposited data

Results flagged for a closer look

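Among values with at least 50 UMIs over both libraries, the log2 ratios of 3 genes (ATRA+agonist over DMSO vehicle) had opposite signs in different cell classes, with counting intervals on either side of 0. Below that limit, Hey1 was 1.41 (0.45 to 2.45) in FAP-like cells, from 34 and 13 UMIs, against -0.30 in endothelial-like cells. The differences between classes were not tested, since each group had 1 library. Notch1 was 0.43 in FAP-like cells and -0.11 in endothelial-like cells. Jag1 was 0.25 in FAP-like cells, -0.39 in endothelial-like cells and -1.43 in perineurial-like cells. Hes1 was 0.30 in endothelial-like, 0.21 in FAP-like and 0.54 in MuSC-like cells, and -1.91 in perineurial-like cells. The perineurial-like values rest on 8 and 47 (ATRA+agonist first) Jag1 UMIs and on 17 and 139 Hes1 UMIs. Median depth in the perineurial-like cells was 1223 UMIs in the first library and 2019 in the second, and the part of this depth gap in the values was not tested.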

How the results depend on the processing

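The counts of Notch genes past 1.5-fold, 1 each in MuSC-like, endothelial-like and mural cells, turned on genes near the limit. In MuSC-like cells the count was 0 with each cell weighted alike, with cells thinned to 2000 UMIs, without cells holding Myog, Mki67 or Top2a, with no doublet removal, a doublet rate of 15%, no hemoglobin filter, a mitochondrial limit of 10% or a minimum of 500 genes. It was 2 in cells at or below the median share of dissociation genes, where Hes1 was higher and Hey1 lower. Where it was 1, the gene was Hes1 in place of Hey1 without cells holding endothelial markers, without the shallower MuSC-like cluster and with no maximum of genes, and Heyl in cells above that median. In endothelial-like cells the count was 0 with median-of-ratios scaling, thinned cells, cells assigned by their own markers, the shallow unnamed cluster added, cells at or below the dissociation median, no doublet removal, a mitochondrial limit of 10%, no maximum of genes, a resolution of 0.4 or the Notch genes kept for clustering. It was 2 (Jag1 and Hey1, both lower) without the interferon-led subclusters and with a doublet rate of 15%. In mural cells it was 0 with each cell weighted alike, where the Heyl log2 ratio was 0.55, and 2 with a minimum of 10 UMIs, where Hey1 joined Heyl. Under every other alternative run the count was 1 in each class, and in endothelial-like cells the gene was then Jag1, lower, in cells above the dissociation median and with no hemoglobin filter. The class with the highest level was the same in both libraries for 9 of the 10 genes, and for 8 in thinned cells. The cause of these changes was not tested. The endothelial-like Notch3 log2 ratio, reported as 0.61, turned to -0.59 in thinned cells, -0.15 in cells assigned by their own markers and -0.018 in cells above the dissociation median. Of the other log2 ratios under an alternative, 348 stayed within the reported counting interval and 24 did not, and no other value whose interval left out 0 or that lay past 1.5-fold changed sign. The selections by dissociation genes, by the shallower or shallow clusters and to pericyte-like cells were chosen after seeing the data. No paired analysis was possible because each group had 1 library. With a single library of 2 pooled mice per group, treatment, library and animals cannot be told apart.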

Other observations

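Classes with under 100 cells in a library were left out of the order of levels, and Notch2 was high in some of them. Neutrophil-like cells held Notch2 at 237 CPM (189 to 293) in 44 ATRA+agonist cells and 348 CPM (320 to 377) in 159 vehicle cells. Dendritic-like cells held it at 240 CPM (213 to 270) in 116 cells and 222 CPM (188 to 259) in 69 cells. The vehicle value of the neutrophil-like cells stood above every class in the order.

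A shallow cluster of 632 ATRA+agonist and 352 vehicle cells, with medians of 759 and 884.5 UMIs, was left unnamed for its depth. All 9 endothelial markers were at least 2-fold higher in it than elsewhere. It held Notch4 at 61.0 and 69.8 CPM, Jag2 at 103 and 117 CPM and Hey1 at 56.0 and 58.6 CPM. Heyl was counted 4 times with ATRA+agonist and 0 times with vehicle, and Notch3 4 and 6 times.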
